A study of Mus musculus with 6 samples.

Results

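The genes described here are 41 genes of the Wnt signalling system, taken by gene name from a table of 54532 genes in mouse back epidermis. They comprise 13 Wnt ligands, 12 receptors (9 Frizzled genes, Lrp5, Lrp6 and Ror2), 6 secreted antagonists, 7 feedback targets, and a class of 3 with Lef1, Tcf7 and the beta-catenin gene Ctnnb1. The 3 control samples came from mice with the genotype Spry1flox/flox, and the 3 knockout samples from mice with Spry1flox/flox and K14-Cre-ERT2, a Cre recombinase that tamoxifen activates and that the keratin 14 promoter drives in basal keratinocytes. Mice of both genotypes were gavaged with tamoxifen in corn oil, 0.1 mg per g body weight, on 4 occasions a week for 4 weeks. Samples with Cre but an intact Spry1 were not included, so Cre activity and the loss of Spry1 cannot be told apart here. Neither age nor sex is stated in the labels, and nor is it stated whether each replicate is its own animal. The p-values therefore cover the spread among these 6 samples alone, which may be technical.

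Wnt ligands are secreted proteins that are acylated in the endoplasmic reticulum and bind a Frizzled receptor together with Lrp5 or Lrp6. In the canonical branch this stops the destruction of beta-catenin, which then enters the nucleus and binds Tcf/Lef factors on target genes, among them Axin2. Several targets feed back on the pathway: Axin2 rebuilds the destruction complex, the Nkd proteins bind Dishevelled, Rnf43 and Znrf3 remove Frizzled from the cell surface, and Notum removes the acyl group of the ligand. Secreted antagonists act outside the cell, the Sfrp proteins and Wif1 by binding ligands and the Dkk proteins mainly by binding Lrp5 and Lrp6. In skin the pathway is known for its part in hair follicle formation and cycling and in the growth of basal keratinocytes.

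Values are FPKM, a level scaled to gene length and to a read total per sample, so levels of different genes can be set side by side. That total was 98.8% to 102.9% of the reads recovered from the FPKM in controls and 88.1% to 95.6% in knockouts. Of the 41 genes, 30 had a mean of at least 1 FPKM over the 6 samples and were tested, and 11 did not. Of the 30 tested, 25 reached that mean in both genotypes, while Wnt5b, Wnt10b, Wnt11, Wnt16 and Nkd2 passed only through the controls. In limma on log2(FPKM + 1), with Benjamini-Hochberg adjustment over all 12629 genes tested and a threshold of 0.05, 6 members were higher and 13 lower in the knockout. Over all genes tested, 54.0% passed that threshold, 29.6% higher and 24.4% lower, and the share of members called was 63.3%. Of the 25 members that reached the mean in both genotypes, 6 were higher and 8 lower. The groups did not overlap in 6 of the 30 in the higher and 15 in the lower direction, against 64.2% of all genes tested in either direction, 34.9% higher and 29.4% lower. The log2 fold change, knockout minus control on the log2(FPKM + 1) scale and called log2 change below, had a median of -0.21 over the tested members and 0.03 over all genes tested. Under TPM scaling (each sample set to the same FPKM sum) the median of all genes moved to -0.20, and the calls over all genes split into 2058 higher and 4455 lower in place of 3736 and 3079. That split was 2764 and 3615 in limma-voom on recovered reads, and 2876 and 3736 after scaling to recovered reads.

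**Figure D1:**
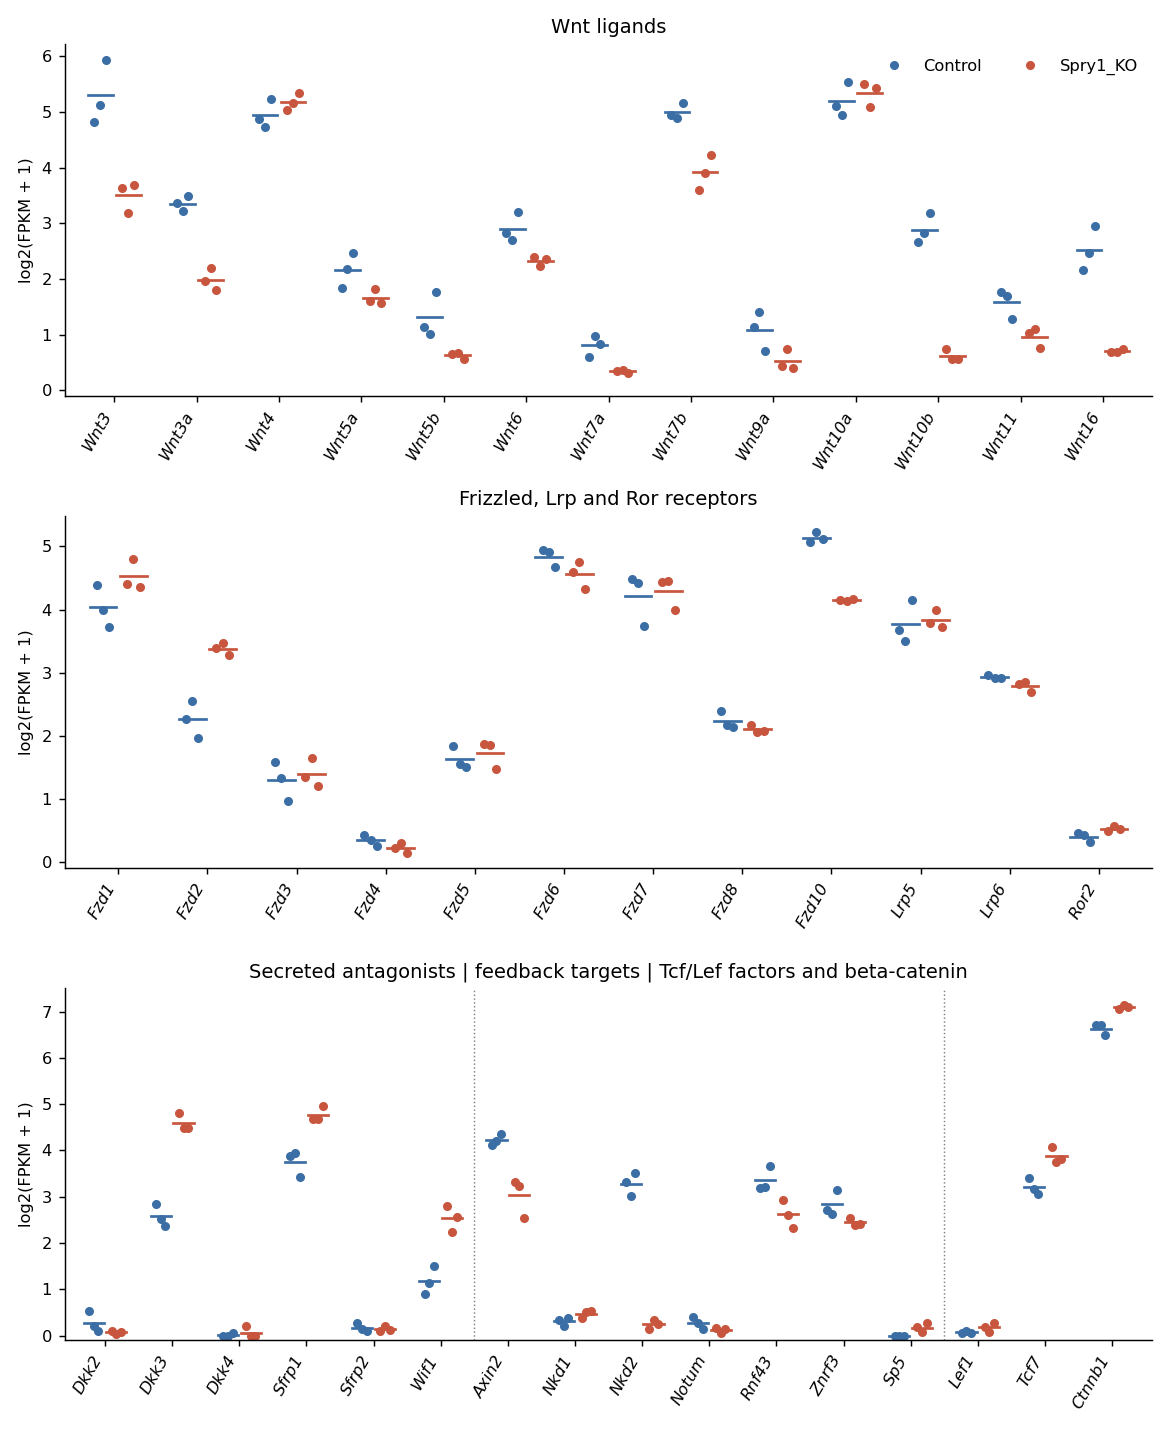
Level of each of the 41 genes in every sample as log2(FPKM + 1), controls in blue and knockouts in red, with a bar at the mean of the 3 samples. Most ligands and the feedback targets Axin2 and Nkd2 sit lower in the knockouts, while Dkk3, Sfrp1 and Wif1 sit higher.

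Recovered depth ran from 18383324 to 21024715 reads per sample. Spry1 read 29.4 ± 4.45 FPKM in controls and 1.28 ± 0.213 in knockouts (SD, n = 3 each). The keratinocyte genes Krt5, Krt14, Krt1 and Krt10, which check the tissue label, read 782 FPKM or more on average in either genotype. They also moved with the genotype: of 6 interfollicular keratinocyte genes Krt14 (4.09-fold), Krt1 (3.85-fold) and Krt5 (1.74-fold) rose, Krt10 and Trp63 fell and Lor did not pass, with sums of 12460 to 13970 FPKM in controls and 22070 to 27620 in knockouts. Control replicate 3 stood apart from the other controls on the second principal component. Other cell types moved with the genotype: of the tested markers 4 of 6 fibroblast, 5 of 5 skeletal muscle and 4 of 5 Langerhans cell genes fell, 6 of 6 melanocyte genes rose, 5 of 6 macrophage and neutrophil genes rose and 1 fell, and of 6 T cell genes 4 fell and 1 rose. Their summed levels in controls and knockouts were 12.4 to 20.6 and 4.56 to 9.06 FPKM for 8 fibroblast genes, 13.2 to 55.1 and 0.99 to 2.15 for 6 muscle genes, 981 to 1630 and 372 to 553 for 5 Langerhans cell genes, 8.52 to 11.6 and 211 to 215 for 6 melanocyte genes, 13.5 to 21.6 and 60.1 to 112 for 6 macrophage and neutrophil genes, and 45.3 to 62.8 and 14.9 to 29.0 for 6 T cell genes. Of 8 hair follicle stem cell and outer root sheath genes 7 were tested, of which Nfatc1 and Tbx1 rose and Krt15 fell, with sums of 2970 to 3820 and 734 to 1039 FPKM that Krt15 made up almost whole. Hair matrix and shaft genes summed to 16.5 to 19.2 and 13.8 to 21.5 FPKM, with 1 risen and 1 fallen of 4 tested, and infundibulum, isthmus and sebaceous gland genes to 310 to 680 and 640 to 687, with 1 risen and 3 fallen of 7. Endothelial (0.576 to 3.41 and 0.571 to 1.18 FPKM), adipocyte (0.528 to 0.986 and 0.509 to 1.33) and dermal papilla genes (0.979 to 2.52 and 1.22 to 1.54) were low in sum. Of these only 1 dermal papilla gene was tested, and it was not called. Krt35, Sox2 and Lep were listed at 0 in the knockouts, and Padi3 in the controls. Among the called markers, the 5 muscle genes, Col1a2, Col3a1, Dpt and Msx2 reached a mean of 1 FPKM only in the controls. Mlana, Tyr, Sox10, C1qc, Cd14 and Cxcr2 did so only in the knockouts. All of these passed the filter only through the genotype where they were high. Over all genes tested 29.6% rose and 24.4% fell. The part of these cell types in the results below was not tested, and in bulk tissue fewer cells of a type and less RNA per cell cannot be told apart.

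Sequence upstream of the start was examined for 27 of the 41 genes that RefSeq's promoter table for GRCm38.p6 holds. The 250 bases before the annotated start were searched on both strands for a TCF/LEF motif (CTTTG followed by a pair of bases that are each A or T) and for the GC box GGGCGG. The TCF/LEF motif was found in 5 of the 36 windows of these genes (13.9%), against 14.8% of 32851 windows of all genes. The GC box was found in 24 of the 36 (66.7%), against 32.7%. The windows of the members were 44.4% to 87.6% G or C, and the content of the windows of all genes was not examined. Overlapping windows of Lef1, and of Ctnnb1, hold the same GC boxes and were each counted. The GC box shares are thus given as a description, with no test. The windows with a TCF/LEF match belonged to Wnt5b, Wnt11, Fzd7, Sp5 and Lef1. Shown here are the windows of the tested members that fell most and had one, Nkd2, Wnt10b and Wnt16. Also shown are that of the pathway readout Axin2 and the window of Wnt11 that holds a match to both motifs. Wnt11 fell, and its other window holds neither motif. Wnt5b also fell and has a window with both motifs, which is not shown. Capitals mark matches to either motif, and each sequence runs 5′ to 3′ on the strand of the gene.
Nkd2, chr13:73847632-73847881, minus strand: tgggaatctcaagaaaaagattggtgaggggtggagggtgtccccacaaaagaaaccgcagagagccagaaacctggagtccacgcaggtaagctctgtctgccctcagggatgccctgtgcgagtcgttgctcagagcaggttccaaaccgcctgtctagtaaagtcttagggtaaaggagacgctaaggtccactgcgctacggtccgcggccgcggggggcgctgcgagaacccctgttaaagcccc
Wnt10b, chr15:98778151-98778400, minus strand: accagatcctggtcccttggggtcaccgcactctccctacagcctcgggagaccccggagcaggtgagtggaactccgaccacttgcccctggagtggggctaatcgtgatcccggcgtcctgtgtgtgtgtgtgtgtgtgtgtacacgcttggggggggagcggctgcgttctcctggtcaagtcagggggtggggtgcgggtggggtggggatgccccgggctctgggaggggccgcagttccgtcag
Wnt16, chr6:22287977-22288226, plus strand: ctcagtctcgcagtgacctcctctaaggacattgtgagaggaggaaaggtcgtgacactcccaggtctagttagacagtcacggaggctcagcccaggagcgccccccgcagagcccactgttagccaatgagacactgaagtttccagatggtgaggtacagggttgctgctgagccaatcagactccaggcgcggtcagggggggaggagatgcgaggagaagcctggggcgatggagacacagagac
Axin2, chr11:108920099-108920348, plus strand: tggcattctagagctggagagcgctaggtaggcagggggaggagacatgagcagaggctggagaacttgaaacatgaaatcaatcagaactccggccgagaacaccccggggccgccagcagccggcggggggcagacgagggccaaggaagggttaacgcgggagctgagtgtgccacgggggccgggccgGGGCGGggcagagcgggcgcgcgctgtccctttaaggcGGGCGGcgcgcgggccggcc
Wnt11, chr7:98834862-98835111, plus strand: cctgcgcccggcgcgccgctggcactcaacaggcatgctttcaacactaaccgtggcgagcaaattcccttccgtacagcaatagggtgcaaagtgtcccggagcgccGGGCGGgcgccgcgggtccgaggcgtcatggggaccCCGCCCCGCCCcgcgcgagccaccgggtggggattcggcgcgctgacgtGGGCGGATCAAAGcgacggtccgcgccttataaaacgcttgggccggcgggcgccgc
The windows of Nkd2, Wnt10b and Wnt16 hold neither motif, and that of Axin2 holds 2 GC boxes and no TCF/LEF match. In Wnt11 the TCF/LEF match directly adjoins a GC box and starts 51 bases before the start of the gene, and 2 of the GC boxes overlap by 1 base. A match is a description of these letters only, and the missing matches say nothing of sites elsewhere.

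Most of the tested ligands fell. Of 11 tested ligand genes 9 were lower and 0 higher in the knockout, where 24.4% of all genes were lower, and 0 were higher at an unadjusted limma p under 0.05 or in limma-voom on recovered reads. Of the 7 ligands with a mean of at least 1 FPKM in both genotypes, 5 were lower. The summed level of the 13 ligands was 151, 152 and 220 FPKM in controls and 112, 104 and 123 FPKM in knockouts, so that the groups did not overlap.

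Wnt10b, a canonical ligand known from hair follicle formation, fell most among the ligands. Control samples held 5.31, 6.09 and 8.06 FPKM, against 0.673, 0.474 and 0.483 in the knockouts. Each control lay several fold above each knockout sample. Mean FPKM was 11.9-fold lower (log2 change -2.26 ± 0.15, SE; limma adjusted p of 7.68e-05). Wnt10b spans 98770712 to 98778150 of chromosome 15 (GRCm38) next to Wnt1, with 11706 bases and no other protein-coding gene between them. Wnt1 averaged 0.00766 FPKM in controls and was listed at 0 in the knockouts.

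Wnt16, a ligand expressed in keratinocytes, read 3.47, 4.54 and 6.72 FPKM in controls and 0.605, 0.608 and 0.683 FPKM in knockouts. The knockout samples lay close together and below every control (log2 change -1.82 ± 0.20, SE; limma adjusted p of 0.000426; 7.77-fold lower in mean FPKM). Wnt3 was the most abundant ligand of the controls by mean, with 27.4, 33.9 and 60.4 FPKM, and read 11.4, 8.13 and 11.9 FPKM in knockouts. Its control values spread widely, with Control replicate 3 highest, but none came near the knockouts. Its log2 change (-1.79 ± 0.29, SE; limma adjusted p of 0.00222) stayed between -2.03 and -1.47 when any 1 sample was left out. Wnt3a, which activates beta-catenin signalling, read 9.32, 8.28 and 10.2 FPKM in controls and 2.90, 3.57 and 2.49 FPKM in knockouts (log2 change -1.37 ± 0.13, SE; limma adjusted p of 0.000229). Its neighbour on chromosome 11, Wnt9a, is 16175 bases away on the other strand and lay below the filter, with 1.20, 1.66 and 0.632 FPKM in controls and 0.359, 0.675 and 0.329 FPKM in knockouts, groups that overlapped.

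Wnt7b, made by epidermal and follicle keratinocytes, read 29.8, 28.8 and 34.9 FPKM in controls and 11.1, 14.0 and 17.9 FPKM in knockouts. All knockouts lay below all controls (log2 change -1.09 ± 0.17, SE; limma adjusted p of 0.00178). Its close relative Wnt7a lay below the filter, with 0.519, 0.965 and 0.793 FPKM in controls and 0.267, 0.291 and 0.249 FPKM in knockouts, and these groups did not overlap either.

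Wnt6, Wnt5a, Wnt5b and Wnt11 were lower as well. Wnt6 read 6.06, 5.49 and 8.17 FPKM in controls and 4.25, 3.68 and 4.16 FPKM in knockouts (log2 change -0.58 ± 0.14, SE; limma adjusted p of 0.0125). Wnt5a, the main ligand of the beta-catenin-independent branch, read 2.57, 3.54 and 4.53 FPKM in controls and 2.03, 2.51 and 1.96 FPKM in knockouts (-0.50 ± 0.17, SE; limma adjusted p of 0.0445). Wnt5b read 1.20, 1.03 and 2.42 FPKM in controls and 0.581, 0.586 and 0.481 FPKM in knockouts (-0.68 ± 0.21, SE; limma adjusted p of 0.0322). No control overlapped a knockout in these 3 genes, but in Wnt5a the lowest control and the highest knockout nearly met. Wnt11, which acts mostly without beta-catenin, read 2.40, 2.23 and 1.43 FPKM in controls and 1.05, 1.14 and 0.691 FPKM in knockouts (-0.62 ± 0.17, SE; limma adjusted p of 0.0218). Wnt5a, Wnt5b and Wnt11 stood near the threshold. Wnt5a did not pass without Control replicate 2 or 3 or any 1 knockout (limma adjusted p of 0.0581 to 0.123), Wnt5b without any 1 knockout (0.0702 to 0.0887; it fell below the filter without Control replicate 3), and Wnt11 without Control replicate 1 or 2 or Spry1_KO replicate 3 (0.0695 to 0.0748). Over these same omissions the log2 change ran from -0.58 to -0.35 for Wnt5a, from -0.70 to -0.65 for Wnt5b and from -0.56 to -0.51 for Wnt11.

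The abundant ligands Wnt10a and Wnt4 did not pass. Wnt10a, in which loss-of-function changes are known to cause ectodermal dysplasia, read 33.4, 29.9 and 45.3 FPKM in controls and 44.5, 33.2 and 42.3 FPKM in knockouts (log2 change 0.15 ± 0.18, SE; limma adjusted p of 0.497). Wnt4 read 28.2, 25.6 and 36.5 FPKM in controls and 31.9, 34.7 and 39.8 FPKM in knockouts (0.24 ± 0.15, SE; limma adjusted p of 0.21). Both overlapped between the genotypes, and both log2 fold changes turned negative under TPM scaling (-0.12 for Wnt10a and -0.03 for Wnt4). Wnt4 was higher without Control replicate 3 (log2 fold change 0.38, limma adjusted p of 0.0276), and Wnt10a once Spry1_KO replicate 2 was left out as well (0.45, limma adjusted p of 0.0142). Wnt10a lies 6193 bases from Wnt6 on the same strand of chromosome 1 with no protein-coding gene between them. Wnt6 passed and Wnt10a did not, but the difference between the 2 genes was not tested.

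Levels of the ligands were ordered differently in each genotype. In the controls Wnt3 (40.6 ± 17.5 FPKM), Wnt10a (36.2 ± 8.06), Wnt7b (31.2 ± 3.23) and Wnt4 (30.1 ± 5.67, SD, n = 3) were the highest, and these 4 did not differ from their neighbours in that order beyond their spread. In the knockouts Wnt10a (40.0 ± 5.97 FPKM) and Wnt4 (35.4 ± 3.98) came first and overlapped each other, followed at a distance by Wnt7b (14.3 ± 3.37) and Wnt3 (10.5 ± 2.06). As a share of the summed ligand FPKM, Wnt10a made up 20.8% ± 1.23 in controls and 35.4% ± 3.99 in knockouts, Wnt4 17.4% ± 1.16 and 31.4% ± 2.56, and Wnt3 22.6% ± 4.66 and 9.26% ± 1.25 (SD, n = 3 each). These shares are given as a description, with no test.

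**Figure D2:**
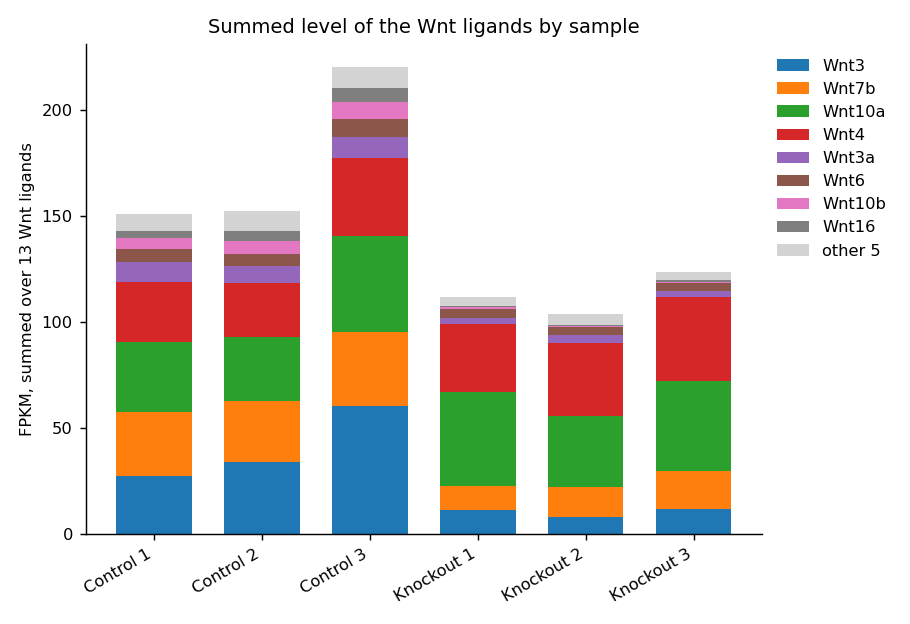
FPKM of the 13 Wnt ligands stacked for each of the 6 samples, with 8 genes shown by colour and the other 5 in grey. The controls reach 151 to 220 FPKM and the knockouts 104 to 123, and the blocks of Wnt3 and Wnt7b shrink while those of Wnt10a and Wnt4 do not.

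The receptors moved little. Of 10 tested, 1 rose and 1 fell, a share of 20% where 54.0% of all genes were called. Fzd10 was the most abundant Frizzled gene of the controls, at 32.8, 36.4 and 33.6 FPKM, and read 16.8, 16.5 and 16.9 FPKM in knockouts. Its values hardly varied within a genotype (log2 change -0.99 ± 0.07, SE; limma adjusted p of 0.000107). Fzd2 went the other way, from 3.79, 4.88 and 2.91 FPKM to 9.47, 10.1 and 8.68 FPKM, with no overlap (1.11 ± 0.15, SE; limma adjusted p of 0.00113).

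None of the other Frizzled genes passed. Fzd6, known from the orientation of hair follicles, read 27.7 ± 2.85 FPKM in controls and 22.7 ± 3.48 in knockouts (limma adjusted p of 0.114), Fzd7 18.0 ± 4.94 and 18.8 ± 3.40, and Fzd1 15.8 ± 3.97 and 22.3 ± 4.02 (limma adjusted p of 0.0714; SD, n = 3 each). All of these overlapped between the genotypes. Fzd1 passed once Control replicate 1 was left out (limma adjusted p of 0.023), and Fzd6 was lower in 5 of 16 alternatives, among them TPM scaling (0.0179). Receptors split into 1 higher and 3 lower under TPM scaling and in limma-voom on recovered reads. Fzd8, Fzd5 and Fzd3 averaged between 1.49 and 3.71 FPKM in either genotype and did not pass. Fzd4 lay below the filter, at 0.273 ± 0.0802 and 0.170 ± 0.0615 FPKM. By rank of mean FPKM among 9 Frizzled genes, Fzd10 moved from 1 to 4 and Fzd1 from 4 to 2. The 9 genes summed to 107 ± 13.4 FPKM in controls and 97.4 ± 11.5 in knockouts, sums that overlapped.

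The co-receptors Lrp5 and Lrp6, which Frizzled receptors need for the canonical signal, did not pass. Lrp5 read 12.9 ± 3.40 and 13.3 ± 1.38 FPKM. Lrp6 read 6.77, 6.58 and 6.52 FPKM in controls and 6.06, 6.20 and 5.46 FPKM in knockouts, which did not overlap, but its log2 change was -0.14 ± 0.08 (SE; limma adjusted p of 0.164, and 0.029 under TPM scaling). Ror2, a receptor of Wnt5a, lay below the filter at 0.322 ± 0.0704 and 0.439 ± 0.0458 FPKM.

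The secreted antagonists rose where they could be tested. Of 6 genes, 3 passed the filter and all 3 of these were higher, where 29.6% of all genes were higher, while 0 were lower at an unadjusted limma p under 0.05 or in limma-voom on recovered reads. Dkk3, a divergent Dickkopf protein for which binding to Lrp5 and Lrp6 is not established, rose most, from 6.14, 4.75 and 4.17 FPKM to 27.0, 21.5 and 21.5 FPKM. The lowest knockout was over 3 times the highest control (log2 change 2.02 ± 0.15, SE; limma adjusted p of 9.74e-05). Sfrp1, a Frizzled-related protein that binds ligands, read 13.7, 14.4 and 9.78 FPKM in controls and 24.5, 24.7 and 29.9 FPKM in knockouts (1.02 ± 0.16, SE; limma adjusted p of 0.0018). Wif1, which also binds ligands, read 0.859, 1.19 and 1.86 FPKM in controls and 5.97, 3.73 and 4.88 FPKM in knockouts (1.35 ± 0.20, SE; limma adjusted p of 0.00167). None of these 3 overlapped between the genotypes. The summed level of the 6 antagonists was 19.3 ± 2.92 FPKM in controls and 54.8 ± 4.06 in knockouts (SD, n = 3 each). This rise does not hold for all antagonists. The 10 genes listed below as further antagonists summed to more, and went from 160 to 178 FPKM in controls to 115 to 133 in knockouts.

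The other antagonists were near 0. Dkk2 averaged 0.230 and 0.0591 FPKM, Sfrp2 0.126 and 0.105 FPKM, and Dkk4 0.0130 and 0.0505 FPKM, the last from 1 and 4 reads in a single sample of each genotype. These 3 genes held at most 31 recovered reads in any sample, so no difference was readable at this depth.

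Of 4 tested feedback targets 3 were lower and 0 higher, where 24.4% of all genes were lower. Nkd2 passed the filter only through the controls, and of the 3 targets with a mean of at least 1 FPKM in both genotypes 2 were lower. There were 4 lower and 0 higher targets at an unadjusted limma p under 0.05 and in limma-voom on recovered reads. Axin2, the most used readout of canonical Wnt signalling, read 16.4, 17.4 and 19.5 FPKM in controls and 8.99, 8.37 and 4.82 FPKM in knockouts. The controls lay close together and Spry1_KO replicate 3 was the lowest sample. Mean Axin2 was 2.40-fold lower (log2 change -1.20 ± 0.21, SE; limma adjusted p of 0.00292). Axin2 passed in each of 16 alternatives, with log2 fold changes from -1.45 to -0.95. Axin2 spans 108920349 to 108950783 of chromosome 11, where 3.80% of its exon bases overlap an antisense gene that read 0.935 and 0.227 FPKM.

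Nkd2, which binds Dishevelled, had the largest change of all 41 genes. Controls held 8.96, 7.05 and 10.4 FPKM and knockouts 0.113, 0.263 and 0.202, from 788, 622 and 982 recovered reads against 11, 22 and 16. Mean FPKM was 45.8-fold lower. The log2 change of -3.03 ± 0.15 (SE; limma adjusted p of 2.35e-05) understates this because of the pseudocount, and was -4.95 with a pseudocount of 0.1 FPKM and -5.68 in limma-voom on recovered reads. Its paralogue Nkd1 lay below the filter and read 0.242 ± 0.0767 FPKM in controls and 0.388 ± 0.0719 in knockouts, without overlap and in the other direction.

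The ubiquitin ligases Rnf43 and Znrf3, which lower Frizzled at the cell surface, followed with smaller differences. Rnf43 read 8.15, 8.23 and 11.8 FPKM in controls and 6.66, 5.10 and 3.99 FPKM in knockouts (log2 change -0.74 ± 0.20, SE; limma adjusted p of 0.0172). Znrf3 read 5.62, 5.21 and 7.90 FPKM in controls and 4.84, 4.26 and 4.30 FPKM in knockouts (-0.39 ± 0.15, SE; limma adjusted p of 0.0601). Neither overlapped between the genotypes, and both stood near the threshold. Rnf43 did not pass without Spry1_KO replicate 3 (limma adjusted p of 0.0529) or without the pair of Control replicate 3 and Spry1_KO replicate 2 (0.0716), and Znrf3 passed without Control replicate 2 (0.0404), under TPM scaling (0.0309), after scaling to recovered reads (0.0384) and in limma-voom on recovered reads (0.0276). Notum, which inactivates ligands, averaged 0.210 and 0.0909 FPKM with overlap. Sp5, a zinc finger factor and Wnt target, was listed at 0 in all controls and read 0.142, 0.0549 and 0.203 FPKM in knockouts, from 6, 2 and 7 reads.

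**Figure D3:**
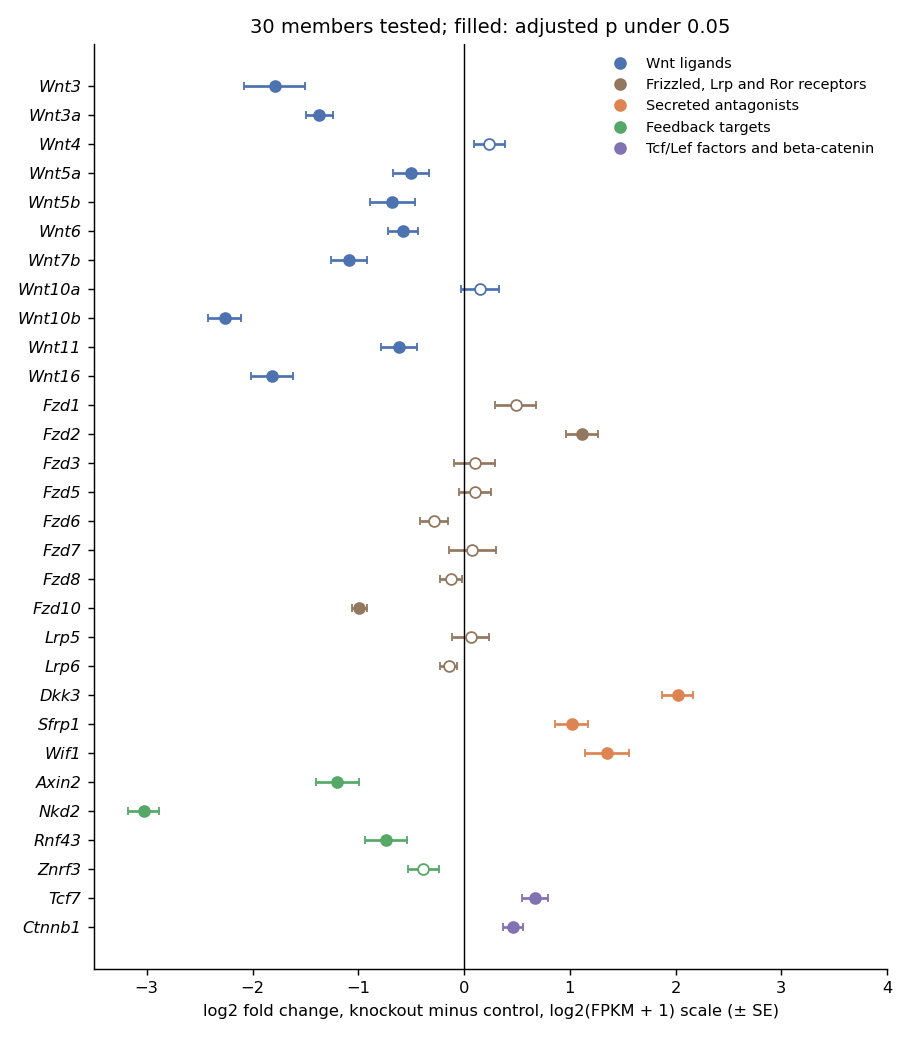
Log2 fold change, knockout minus control, on the log2(FPKM + 1) scale with its standard error for the 30 tested members, coloured by class. Filled points passed an adjusted p of 0.05 in limma, and the ligands and feedback targets that passed lie left of 0 while the 3 antagonists lie right of it.

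Tcf7 and Ctnnb1, the tested genes of the last class, were higher in the knockout, and Lef1 was too low to test. Ctnnb1, which encodes beta-catenin, was by far the most abundant of the 41 genes and read 103, 104 and 88.9 FPKM in controls and 131, 140 and 137 FPKM in knockouts (log2 change 0.46 ± 0.09, SE; limma adjusted p of 0.00564). Under TPM scaling it was 0.19 with a limma adjusted p of 0.104, past the threshold no longer. Tcf7, which encodes the DNA-binding factor TCF1, read 9.53, 8.02 and 7.33 FPKM in controls and 15.8, 12.5 and 13.2 FPKM in knockouts (0.67 ± 0.12, SE; limma adjusted p of 0.00396), with no overlap. TCF1 is also known from T cells. Of 6 tested T cell genes Cd3e, Cd3g, Cd3d and Trdc fell, Lck did not pass and Trac rose. Trac went from 3.05 ± 1.71 FPKM in controls to 8.26 ± 2.77 in knockouts (SD, n = 3 each). Sums of the 6 genes were 45.3 to 62.8 FPKM in controls and 14.9 to 29.0 in knockouts. The part of T cells in the Tcf7 level was not tested. Lef1, the factor of the hair matrix, stayed near 0 in both genotypes, at 0.0375, 0.0747 and 0.0467 FPKM in controls and 0.142, 0.0525 and 0.207 FPKM in knockouts. Both tested genes of this class were higher and 0 were lower, where 29.6% of all genes were higher. The class counts were the same at an unadjusted limma p under 0.05 and in limma-voom on recovered reads.

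Among 73 other genes of the pathway 49 were tested, of which 14 rose and 11 fell (54.0% of all genes were called). Under TPM scaling that split was 8 and 13, and after scaling to recovered reads 10 and 13. Of the called genes Rspo3 passed the filter only through the controls, and Trabd2b and Tcf7l1 only through the knockouts. Ligand export genes moved apart. Porcn, the acyltransferase that modifies Wnt ligands, read 1.19, 1.60 and 2.04 FPKM in controls and 22.7, 12.8 and 15.3 FPKM in knockouts (log2 change 2.75 ± 0.22, SE; limma adjusted p of 0.000128). Wls, which carries the ligands to the cell surface, read 22.4, 23.8 and 25.8 FPKM in controls and 15.9, 15.7 and 16.1 FPKM in knockouts (-0.56 ± 0.08, SE; limma adjusted p of 0.00126). Rspo3, an R-spondin that protects Frizzled from Rnf43 and Znrf3, read 2.54, 2.25 and 4.90 FPKM in controls and 0.129, 0.0373 and 0.0197 FPKM in knockouts (-1.94 ± 0.24, SE; limma adjusted p of 0.000663). All of these were separated between the genotypes, Rspo3 down to nearly 0. The other R-spondin genes lay at or under 0.126 FPKM on average.

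Of 10 tested receptors and co-receptors outside the 41 genes, 2 rose and 4 fell, a share of 60% where 54.0% of all genes were called. Vangl1, of planar polarity, rose from 4.16 ± 0.511 to 11.9 ± 0.408 FPKM, and Celsr1, of the same system, fell from 23.2 ± 5.67 to 11.1 ± 0.855 FPKM (SD, n = 3 each; limma adjusted p of 9.71e-05 and 0.00252). Kremen1, which binds Dkk proteins, fell from 22.2 ± 0.635 to 13.5 ± 1.10 FPKM (limma adjusted p of 0.000675). Of 5 tested genes listed as further antagonists 3 rose and 2 fell, where 29.6% of all genes rose and 24.4% fell. Trabd2b, a metalloprotease that cleaves Wnt ligands, rose from 0.875 ± 0.205 to 4.35 ± 0.171 FPKM, while Apcdd1, a membrane-bound inhibitor linked to hair growth, fell from 57.1 ± 5.40 to 25.2 ± 2.25 FPKM and Dkkl1 from 66.7 ± 7.57 to 19.6 ± 3.21 FPKM (SD, n = 3 each; limma adjusted p of 0.000107, 0.000211 and 0.000148). The genes of this list that passed went both ways, and whether each of them, Dkkl1 included, acts as a Wnt antagonist was not examined. Dkk1 and Sost were listed at 0 in all 6 samples.

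Of 14 tested genes of the destruction complex and Dishevelled group 4 rose and 1 fell, a share of 35.7% where 54.0% of all genes were called. Csnk1a1, a kinase that primes beta-catenin for destruction, rose from 52.9 ± 0.631 to 85.1 ± 7.71 FPKM and Csnk1e from 5.61 ± 0.529 to 8.47 ± 0.571 (SD, n = 3 each; limma adjusted p of 0.000962 and 0.00346). The tankyrase gene Tnks2 read 14.2, 13.8 and 10.8 FPKM in controls and 19.9, 22.2 and 20.9 FPKM in knockouts (limma adjusted p of 0.00296). Csnk1e did not pass under TPM scaling (limma adjusted p of 0.15). Of 10 tested nuclear partners 3 rose and 1 fell, a share of 40%, also under that of all genes. Tle1, a corepressor gene, went from 3.21 ± 0.0750 FPKM in controls up to 10.7 ± 0.517 in knockouts (SD, n = 3; limma adjusted p of 2.79e-05). Tle3 and Tcf7l1 rose by less, with log2 fold changes of 0.33 and 0.48 (limma adjusted p of 0.00829 and 0.0286). TPM scaling ended both calls (limma adjusted p of 0.618 and 0.103), and Tcf7l1 did not pass without Control replicate 2 (0.0855) or Spry1_KO replicate 2 (0.091) or 3 (0.0934). Of 7 tested further targets 1 rose and 1 fell, a share of 28.6%, again under that of all genes. Cd44, a hyaluronan receptor, went from 34.1 ± 4.67 to 88.7 ± 3.51 FPKM (limma adjusted p of 0.000135). Tnfrsf19, a receptor known from hair follicles, went from 67.1 ± 9.87 to 25.0 ± 7.24 FPKM (SD, n = 3 each, limma adjusted p of 0.00192). Targets that many pathways share, such as Ccnd1 (19.6 ± 5.03 and 18.9 ± 4.26 FPKM) and Myc (37.1 ± 19.6 and 51.1 ± 4.70 FPKM), overlapped between the genotypes and did not pass. These last were chosen after their values were seen.

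**Figure D4:**
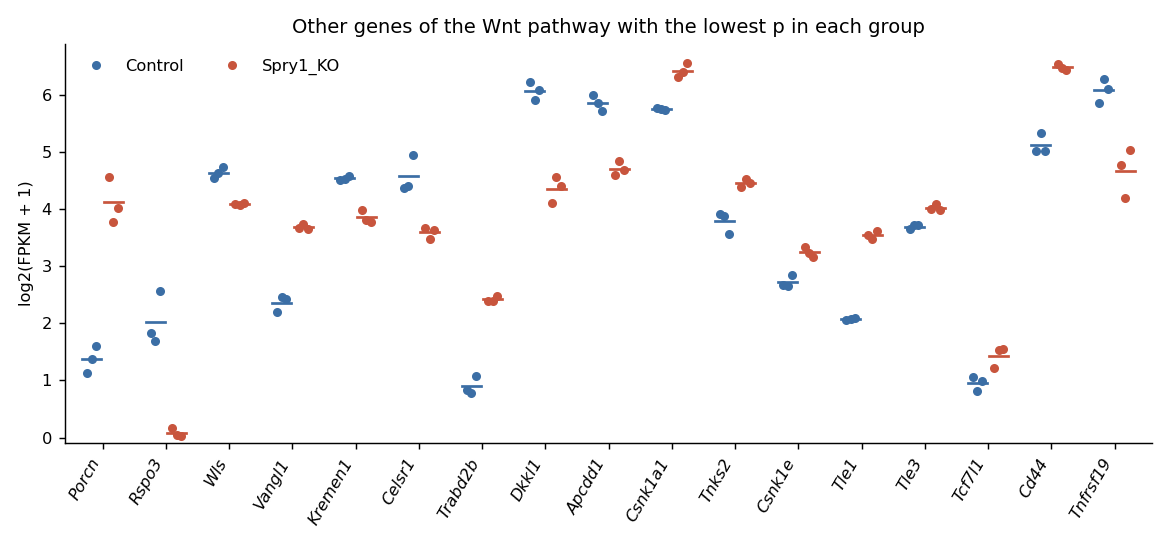
Level of 17 other Wnt pathway genes in every sample as log2(FPKM + 1), controls in blue and knockouts in red, with a bar at the mean of the 3 samples. Porcn sits above 12 FPKM in every knockout and near 2 FPKM or lower in the controls, and Rspo3 is near 0 in the knockouts.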

How the data were processed

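RNA-seq of back epidermis gave 1 table, which the authors deposited, of FPKM values with 1 column per sample. HISAT2 2.0.5, featureCounts 1.5.0-p3 and the build GRCm38 are named per the submitters' processing notes. No annotation release, strand setting or filter is named in the sources used, so antisense or overlapping genes cannot be told apart. Few abundant genes can shift all FPKM: the top 10 held 12.6% to 16.0% of the sum in controls and 18.6% to 22.2% in knockouts. FPKM times the GENCODE M21 exon length were whole multiples of 1 step for 97.0% to 97.3% of values (tolerance 0.1 reads), which gave recovered reads.

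Groups and replicate numbers came from the titles. Limma 3.58.1 (R 4.3.3) with a trend was run two-sided on log2(FPKM + 1), fitting genotype alone. Tested were the 12629 genes whose mean reached 1 FPKM. This scale understates the change of low genes. The fit was tested on simulated data with a dispersion of 0.02. There it called 14 of 62 genes with a true change of 1.5-fold, 61 of 65 at 2-fold and 63 of 63 at 4-fold. Of 11841 unchanged genes it called 20. In the 6 samples a far larger share of genes, 54.0%, was called, so these rates need not hold there. How often the fit misses changes near 1.5-fold in the 6 samples was not tested. The members, gene lists and alternatives were chosen with earlier results of these data known. Named were all members, of each other pathway list up to 3 called genes with the lowest p, and Spry1. Other cell type markers, R-spondins, Wnt1, Dkk1 and Sost were named after their values were seen. Alternatives were other pseudocounts, filters, scalings and weights, a replicate block, left-out samples and limma-voom. Figures used matplotlib 3.10.9 (Python 3.11.15).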

Additional observations from a re-analysis of the deposited data

How the results depend on the processing

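All counts and members were recomputed under 16 alternatives, of which scaling to recovered reads was chosen after seeing the data. No called member changed direction in any of them. With a filter at 5 FPKM, which tested 7594 genes, 1700 genes, 7 members and 4 ligands were lower, since fewer genes were tested. TPM scaling gave 2058 higher genes, 8 higher other pathway genes, 3 lower receptors and 1 higher gene in the class of Lef1, Tcf7 and Ctnnb1. Limma-voom on recovered reads gave 3 lower receptors, and scaling to recovered reads 2. Array weights gave 1 higher ligand (Wnt4) and 2 lower receptors, as did dropping the pair of Control replicate 3 and Spry1_KO replicate 2 (there the ligand was Wnt10a), and testing without a filter gave 1 higher feedback target (Sp5). The cause of these shifts was not tested. With any 1 sample left out, ligands lower ran from 6 to 8 (9 with all samples), ligands higher from 0 to 1, feedback targets lower from 2 to 4, receptors higher from 1 to 2, members higher from 6 to 7 and members lower from 9 to 12. With a replicate block 3216 genes were higher and 2618 lower, and 6 members were higher and 10 lower, with Wnt5a, Wnt5b and Rnf43 no longer called. Samples with the same number did not deviate together (correlations of -0.0981, -0.1109 and -0.1245), and no sample correlated best with its own. The highest correlation was 0.1469, of Control replicate 2 with Spry1_KO replicate 3. Deviations from means of 3 samples cannot show whether samples with the same number share a batch. Genes under about 31 reads per sample, such as Dkk2, Dkk4, Sfrp2 and Lef1, are limited by depth.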

Other observations

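Samples of 1 genotype differed in their Wnt genes, and not in these alone. Over all genes tested, Control replicate 3 lay at -32.2 on the second principal component, against 15.6 and 17.4 for Control replicates 1 and 2. The counts that follow were not made over all genes. Over the 30 tested members Control replicate 3 was the highest control for 16 and the lowest for 13, and Spry1_KO replicate 3 was the lowest knockout for 15. Control replicate 3 read highest in Wnt3, Wnt16, Nkd2 and Rnf43 and lowest in Dkk3, Sfrp1, Fzd1 and Fzd7.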
